A study of Mus musculus with 50 samples.

Results

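The extracellular matrix of the dorsal root ganglion was described here through 50 genes for collagens, basement membrane proteins, small proteoglycans, matrix glycoproteins, matrix enzymes and their inhibitors, and the fibroblast receptor Pdgfra. A gene was represented by the probe set with the highest mean intensity among those annotated to it alone. It was tested when the log2 of that intensity + 1 lay above 4 in at least 2 arrays. Of the 50 genes, 49 had such a probe set and 47 were tested, among 11204 genes tested on the whole array. Fbn1, which encodes fibrillin 1, was the gene without one. Timp1, an inhibitor of matrix metalloproteinases, and Eln, the elastin gene, stayed below the floor in all 50 arrays, with highest values of 3.50 and 3.90. Just inside it were Vcan, the large proteoglycan versican, above the floor in 16 arrays with a highest value of 5.11, and Thbs2, a matricellular thrombospondin, above it in 26 arrays with a highest value of 4.82.

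These ganglia, where the somata of primary sensory neurons lie beside the spinal cord, came from naive wildtype mice of 25 inbred strains at 2 months of age. Each strain gave 1 array of RNA pooled from 3 males and 1 of RNA pooled from 3 females, so every strain mean below rests on 2 arrays that also differ in sex. The labels name no other treatment or allele, and their spelling of each strain is kept. All levels are log2 intensities, compared between strains and never between genes.

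A peripheral ganglion is wrapped in a collagen-rich capsule that continues the nerve sheath and the meninges, and fibroblasts between the neurons and around vessels lay down fibrils of collagen I, III and V. Neurons with their satellite glia, Schwann cells and vessels each sit on a basement membrane of collagen IV, laminins and nidogens. Small leucine-rich proteoglycans such as decorin and lumican bind collagen fibrils and govern their assembly.

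Sensory neuron markers matched the labelled tissue, since all 10 lay above the floor in every array. Markers of other tissues were also read and varied widely. The mean of 10 skeletal muscle markers spanned 3.38 between strains and was highest in SM/J, with 0 called for strain. That of 5 blood and marrow markers spanned 3.59 and was highest in C3H/HeJ, with 5 called. Transcripts of both sexes lay above the floor on 8 arrays. Xist, from the inactive X chromosome, was above it in the male arrays of PL/J (8.97), BTBT T+tf/J (7.78), SWR/J (6.73), NON/LtJ (5.42), NZW/LacJ (5.27), NOD/LtJ (5.19) and c57BL/6J (4.98), and the Y-linked gene Eif2s3y in the female array of SM/J (6.82). The 2 arrays with the highest 3' minus 5' signal of Gapdh, a measure of RNA integrity, were male BTBT T+tf/J (0.60) and female P/J (0.34). Strain values below include these arrays. In whole ganglia, fewer cells of a type and less RNA per cell cannot be told apart.

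The matrix genes differed between strains in 23 of 47 cases (limma moderated F test, adjusted p under 0.05), against 26.1% of all genes tested. The calls covered 5 of 6 fibrillar collagens, 3 of 7 other collagens, 2 of 10 basement membrane genes, 2 of 6 small proteoglycans, 6 of 10 glycoproteins, 4 of 7 genes for matrix enzymes, chaperones and inhibitors, and Pdgfra. The difference between the highest and the lowest strain mean had a median of 1.37 over the members, from 0.43 in Lama4 to 3.78 in Fmod, against 0.82 over all genes. Male and female arrays shared their strain order in part, with a median r of 0.39 over the members and 0.26 over all genes. An r above 0 was found for 46 of 47 members and for 9504 of all 11204 genes. The number of calls was 20 without SM/J and PL/J, 18 without the 8 arrays with transcripts of both sexes and 24 without the 2 arrays of highest Gapdh signal ratio. Leaving out the 8 arrays was chosen after seeing the data, and it lost the calls of Col1a1, Col3a1, Col5a3, Col15a1, Lum, Lox and Pdgfra (adjusted p from 0.057 to 0.252) and added Col8a1 and Bgn.

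Taken as a mean over the 47 genes, after each sex was centred, the matrix genes were highest in NOD/LtJ at 0.48 ± 0.38 (SD, n = 2), with 42 of 47 members above their own mean. The female NOD/LtJ array, at 0.75, was the highest of its sex. The male NOD/LtJ array, at 0.21, lay below those of C3H/HeJ (0.46) and PL/J (0.26). In the strain mean NON/LtJ followed at 0.33 ± 0.24 and C3H/HeJ at 0.26 ± 0.27, with 41 and 42 members above their mean. BTBT T+tf/J was lowest at -0.31 ± 0.28, with 9 of 47 members above their mean, then 129S1/Sv1mJ at -0.23 ± 0.09 and BALB/CByJ at -0.21 ± 0.11. The low rank of BTBT T+tf/J came from its male array at -0.50, the lowest of its sex and the one with the highest Gapdh signal ratio, while its female array at -0.11 lay above those of 10 other strains. The 3 highest strains did not differ from each other beyond the spread of their arrays, and neither did the 3 lowest. The pools of CBA/J were far apart, at -0.20 in males and 0.40 in females, and the male to female r of this mean was 0.35.

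**Figure D1:**
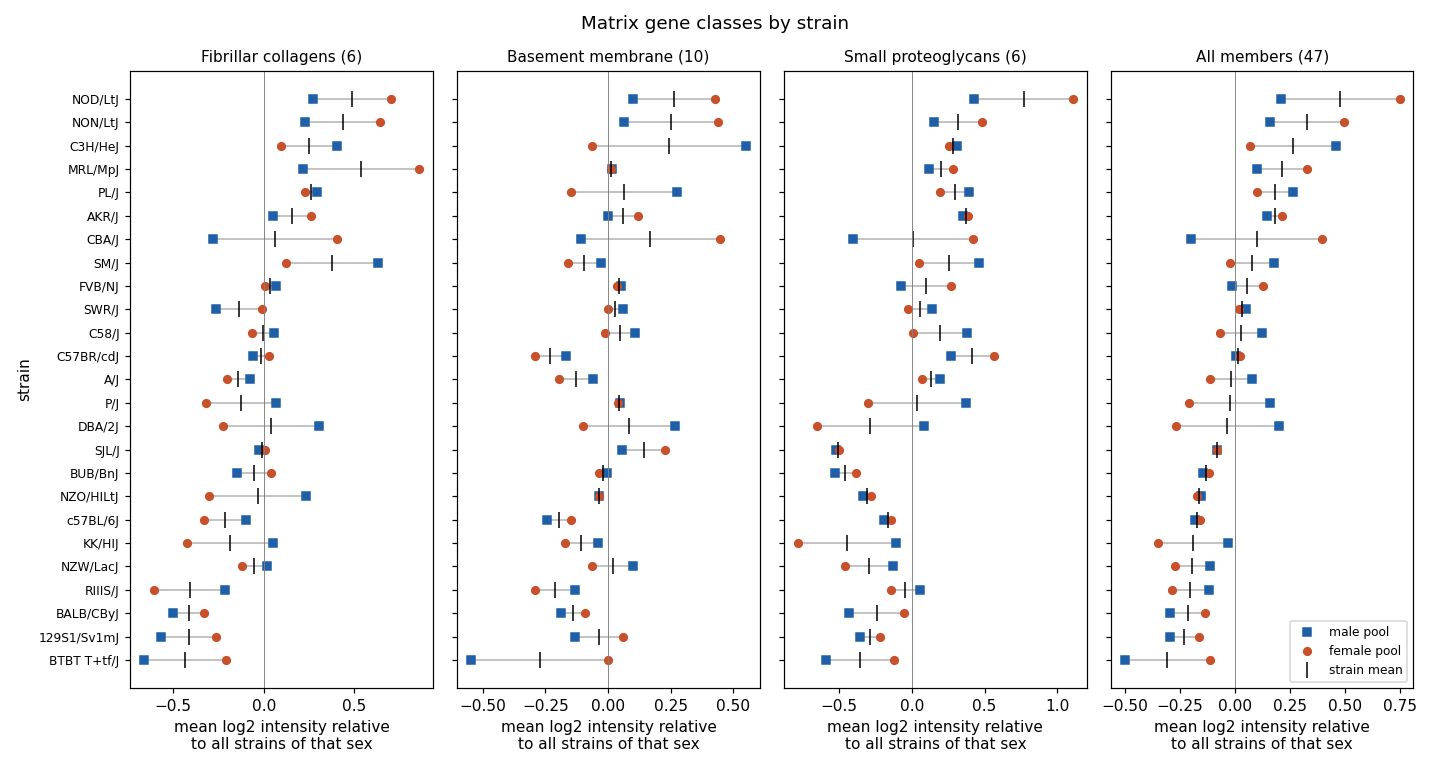
Mean log2 intensity of 3 matrix gene classes and of all 47 members in each of 25 strains (rows, in the order of the mean over all members), relative to the mean of all arrays of the same sex. Squares are male pools, circles female pools and ticks the strain mean; NOD/LtJ lies at the top with 0.48 and BTBT T+tf/J at the bottom with -0.31 over all members.

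Fibrillar collagens form the tensile fibres of the capsule and the endoneurium. Col1a1, a chain of collagen I, ran from 7.002 through a median of 8.06 to 9.45 in male arrays, and from 7.03 through 7.99 to 10.06 in female arrays. Its strain means were highest in MRL/MpJ at 9.13 and SM/J at 8.90 and lowest in 129S1/Sv1mJ at 7.21 (adjusted p = 0.047). That call was near the threshold, and it was lost in 35 of the 50 fits that left out 1 array. Col1a2, the partner chain of collagen I, ran from 10.63 through 11.54 to 11.90 in males and from 10.27 through 11.67 to 12.66 in females. MRL/MpJ at 12.25 and NON/LtJ at 12.14 were its highest strain means (adjusted p = 0.00449).

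Col3a1 encodes collagen III, which mixes with collagen I in thin fibres. Its values ran from 10.22 through 11.25 to 11.89 in males and from 10.74 through 11.51 to 12.64 in females. NON/LtJ at 12.24 and MRL/MpJ at 12.08 stood at the upper end and BTBT T+tf/J at 10.74 at the lower (adjusted p = 0.00856, and 0.057 without the 8 arrays with transcripts of both sexes). In BTBT T+tf/J the male array was at 10.22 and the female array at 11.26. Col5a2, a chain of the collagen V that nucleates fibrils, ranged from 8.91 in NOD/LtJ to 7.73 in RIIIS/J (adjusted p = 0.000304), with a male to female r of 0.68. Col5a1, its partner chain, was not called (range 0.90, adjusted p = 0.593), and its male and female values did not share an order over strains (r = -0.05). Col5a3, another collagen V chain, was highest in SJL/J at 7.67 and lowest in BALB/CByJ at 6.70 (adjusted p = 0.0155, and 0.0584 without those 8 arrays).

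As a class the fibrillar collagens were highest in MRL/MpJ at 0.54 ± 0.46 (SD, n = 2), NOD/LtJ at 0.49 ± 0.31 and NON/LtJ at 0.44 ± 0.29. In each of these 3 strains the female array lay above the male array, at 0.86 against 0.22 in MRL/MpJ. The lowest were BTBT T+tf/J at -0.43 ± 0.32, BALB/CByJ at -0.42 ± 0.12, 129S1/Sv1mJ at -0.41 ± 0.22 and RIIIS/J at -0.41 ± 0.28. Both arrays of these 4 strains lay below the mean of their sex, and the 4 strains did not differ beyond their spread. The female BTBT T+tf/J array, at -0.21, lay above those of 8 other strains.

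The chains followed one another over the strains. Pearson's r was 0.79 for Col1a1 and Col3a1 (permutation p = 1e-05, the smallest that 100000 resamples give; adjusted p = 6e-05 over 18 pairs; rho = 0.76, p = 3e-05). Without MRL/MpJ and SM/J, the strains farthest from the median of Col1a1, it was 0.74. Col1a1 and Col1a2 had an r of 0.66 (permutation p = 0.00021, adjusted p = 0.00063; rho = 0.79, p = 1e-05; r = 0.55 without the same 2 strains). Col5a1 and Col5a2 had an r of 0.72 (permutation p = 9e-05, adjusted p = 0.000324; rho = 0.75, p = 3e-05; r = 0.69 without NON/LtJ and NOD/LtJ). Col3a1 and Col5a2 are genome neighbours, with 0 coding genes between them, and had an r of 0.75 (permutation p = 1e-05, adjusted p = 6e-05; rho = 0.73, p = 5e-05). Across arrays of different animals this last pair gave r = 0.53 for male Col3a1 against female Col5a2 and 0.35 the other way round. In the same order, Col1a1 with Col3a1 gave 0.205 and 0.457, Col1a1 with Col1a2 0.157 and 0.384, and Col5a1 with Col5a2 0.05 and 0.399.

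Col5a3 was the member of the class that departed from this order. Its strain means had an r of 0.08 with the mean of all other members and of 0.11 with the other fibrillar collagens. They ran instead with Timp2 (r = 0.76) and with Col16a1 (r = 0.64), and SJL/J was first or second for all 3 genes. These r values are descriptions over 25 strains whose 2 genes were read on the same arrays. The Timp2 order is that of a single probe set, since its further probe sets had r from -0.32 to 0.42 with it.

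Promoter sequence from RefSeq (GRCm38.p6) is shown for 3 fibrillar chains whose levels moved together in pairs (r = 0.70 for Col1a2 with Col3a1 and 0.75 for Col3a1 with Col5a1). Each is the 120 bases before the annotated start, 5′ to 3′ on the plus strand, with capitals for CCAAT or TATAAA on either strand (reverse complements ATTGG and TTTATA). They lie at chr6:4505498-4505617 for Col1a2, chr1:45311418-45311537 for Col3a1 and chr2:27886305-27886424 for Col5a1.
Col1a2: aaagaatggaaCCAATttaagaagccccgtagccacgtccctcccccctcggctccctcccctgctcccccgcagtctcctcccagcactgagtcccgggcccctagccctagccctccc
Col3a1: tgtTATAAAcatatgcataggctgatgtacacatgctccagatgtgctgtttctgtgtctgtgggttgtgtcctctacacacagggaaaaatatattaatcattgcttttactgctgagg
Col5a1: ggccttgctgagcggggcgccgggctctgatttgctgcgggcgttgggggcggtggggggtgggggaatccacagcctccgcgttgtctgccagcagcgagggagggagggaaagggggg
Col1a2 held CCAAT from 109 bases before the start, Col3a1 held TATAAA from 117 bases before it, and Col5a1 held neither string in this window. The promoter table matched 34 of the 50 members with 39 windows. CCAAT occurred in 5 of these 39 (12.8%) and in 21.3% of all 32851 windows of the same length, and TATAAA in 2 (5.13%) and in 6.34%.

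Among the other collagens, Col12a1, which encodes a fibril-associated collagen, had the widest range at 3.33, whose lower end lies below the floor. Male arrays ran from 3.16 through 5.72 to 6.70 and female arrays from 3.42 through 5.91 to 7.18. It was highest in A/J at 6.72 and MRL/MpJ at 6.63 and lowest in 129S1/Sv1mJ at 3.39 and NZW/LacJ at 4.17 (adjusted p = 0.000595). A strain was said to depart when it differed from the mean of the other 24 by at least 1 log2 unit at an adjusted p under 0.05. By that rule 129S1/Sv1mJ was lower by a difference of -2.37 (SE 0.37, adjusted p = 0.000134), with 3.16 in its male and 3.62 in its female array, below the floor in both. NZW/LacJ was lower by a difference of -1.56 (SE 0.37, adjusted p = 0.014), with 4.22 and 4.12, and without the 8 arrays with transcripts of both sexes this call was lost (adjusted p = 0.0915). The female P/J array was as low, at 3.42, but the male P/J array was not. A further Col12a1 probe set, with a mean of 3.75, gave differences of -0.27 and -0.12 in those strains, neither of them called.

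Col6a3, a chain of the microfibrillar collagen VI, ran from 4.73 through 6.14 to 7.52 in males and from 5.90 through 6.77 to 8.09 in females (adjusted p = 0.000601). C3H/HeJ departed with 7.52 and 7.53 (difference 1.01, SE 0.24, adjusted p = 0.0131), and its male array was the highest of its sex. The call was lost in 9 of the 50 fits that left out 1 array, with differences down to 0.66 and adjusted p up to 0.381, and without SM/J and PL/J, where the difference was 0.99. Col16a1, another fibril-associated collagen, was called with a range of 1.33 (adjusted p = 7.99e-05), from SJL/J at 8.33 and BTBT T+tf/J at 7.95 down to C57BR/cdJ at 6.998. Its order ran apart from the rest, with an r of 0.06 with the mean of the other members.

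The other chains of collagen VI were not called for strain (Col6a1 range 1.08, adjusted p = 0.24; Col6a2 range 1.37, adjusted p = 0.245). They nevertheless had the highest r of the 18 pairs, at 0.84 (permutation p = 1e-05, adjusted p = 6e-05; rho = 0.76, p = 3e-05; r = 0.73 without NOD/LtJ and NON/LtJ). Across arrays of different animals the same pair gave 0.26 and 0.07. Col6a3 followed Col6a1 at r = 0.27 only, a correlation that did not pass (permutation p = 0.19, adjusted p = 0.245). Col8a1, of the short-chain collagens, and Col14a1, a fibril-associated one, had ranges of 1.55 and 1.34 and were not called (adjusted p = 0.0556 and 0.116).

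**Figure D2:**
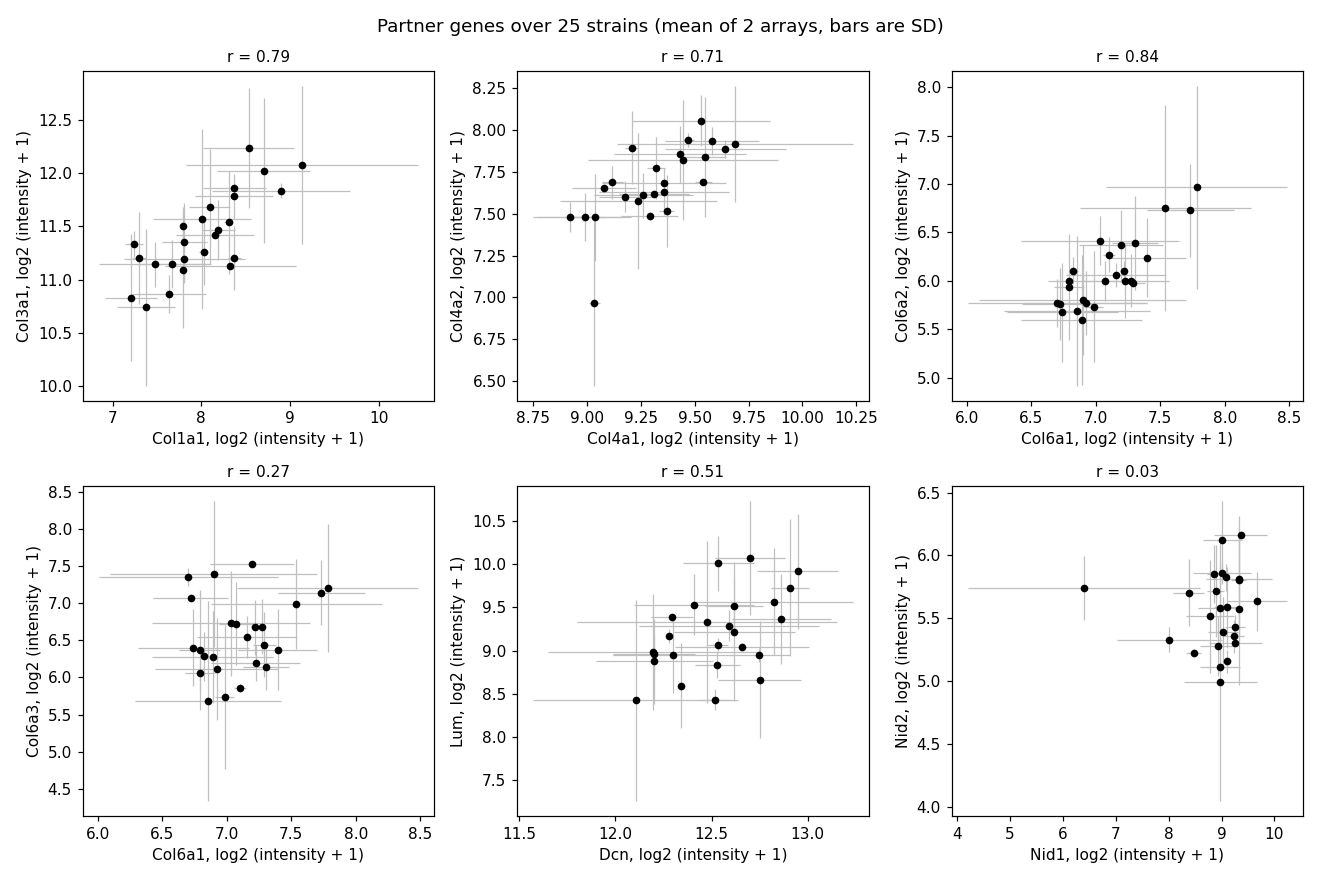
Strain means (points, mean of 2 arrays, bars SD) of 6 gene pairs over 25 strains, in log2 (intensity + 1). Col6a1 and Col6a2 follow each other at r = 0.84, Col1a1 and Col3a1 at 0.79 and Col4a1 and Col4a2 at 0.71, while Col6a1 with Col6a3 (0.27) and Nid1 with Nid2 (0.03, with PL/J at the far left) show loose clouds.

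Of the basement membrane genes, 2 of 10 were called for strain. Col4a1 and Col4a2, the chains of the main collagen IV trimer, spanned 0.77 and 1.09 between strains (adjusted p = 0.135 and 0.0802). Col4a1 ran from 9.04 through 9.39 to 10.07 in males and from 8.80 through 9.19 to 9.84 in females. Col4a2 ran from 6.62 through 7.70 to 8.16 in males and from 7.29 through 7.67 to 8.09 in females, and the lowest point was the male BTBT T+tf/J array. The chains had an r of 0.71 (permutation p = 2e-05, adjusted p = 9e-05; rho = 0.77, p = 2e-05; r = 0.69 without RIIIS/J and C3H/HeJ). Between arrays of different animals it was 0.24 and 0.26.

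These genes lie head to head, and RefSeq (GRCm38.p6) places the start of Col4a2 on the plus strand and that of Col4a1 on the minus strand at the ends of one short stretch. It is shown because both of its strands are read, at chr8:11312805-11312826, 5′ to 3′ on the plus strand, with no letters in capitals.
Col4a1 and Col4a2 starts: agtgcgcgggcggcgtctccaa
The stretch is 22 bases long, and the windows of both genes gave the same letters.

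Nid1, which encodes a linker of laminin to collagen IV, had the widest range of the class at 3.27 (adjusted p = 0.0396). This call was lost in 27 of the 50 fits that left out 1 array, and without NOD/LtJ and NON/LtJ it stood at 0.0626. Male arrays ran from 7.95 through 8.83 to 9.29 and female arrays from 4.85 through 9.26 to 10.07, and both lowest values were those of PL/J. PL/J departed by -2.62 (SE 0.40, adjusted p = 8.74e-05). Without the female PL/J array the difference was -0.88 (adjusted p = 0.171), and the PL/J male array is one of those with transcripts of both sexes. A further Nid1 probe set also departed in PL/J (difference -1.38, SE 0.37, adjusted p = 0.0303), and another, with a mean of 3.84, did not (0.09, adjusted p = 0.928).

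Col15a1, a collagen of the zone under basement membranes, ran from 4.50 through 5.13 to 6.08 in males and from 4.25 through 4.74 to 5.54 in females, and its highest strain mean was that of PL/J at 5.81. Its call (adjusted p = 0.0485) was lost in 38 of the 50 fits without 1 array, and without SM/J and PL/J it stood at 0.233. Col18a1, whose C-terminal fragment is endostatin, was also highest in PL/J, at 5.19, and was not called (adjusted p = 0.13). The laminin chains Lama2, Lama4, Lamb1 and Lamc1 and the linker Nid2 had ranges of 0.76, 0.43, 0.62, 1.37 and 1.17, and none was called. Lamb1 and Lamc1, which share laminin trimers, had an r of 0.43 (permutation p = 0.0308, adjusted p = 0.0461; rho = 0.50, p = 0.0132; r = 0.52 without BALB/CByJ and SJL/J), with -0.12 and 0.03 between arrays of different animals. Nid1 and Nid2 had an r of 0.03 (permutation p = 0.893), and 0.18 without PL/J and SM/J (permutation p = 0.411). Lama2 and Lama4 had an r of 0.36 (permutation p = 0.0765, adjusted p = 0.106), and 0.23 without NOD/LtJ and RIIIS/J.

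The basement membrane mean spanned 0.54 between NOD/LtJ at 0.26 ± 0.23 (SD, n = 2) and BTBT T+tf/J at -0.27 ± 0.39. In BTBT T+tf/J the male array was at -0.55 and the female array at 0.00, and in C3H/HeJ they were at 0.55 and -0.06. The female BTBT T+tf/J array lay above those of 15 other strains, so the low rank of this strain came from its male array. Male and female means of this class shared little of their strain order (r = 0.09, rho = 0.21), against an r of 0.39 for the fibrillar collagens and 0.46 for the small proteoglycans. The difference between these r values was not tested. The class mean includes Nid1, whose female PL/J array lay at 4.85 against a female median of 9.26. Taken singly, the members had a median male to female r of 0.31, above 0 in 10 of 10. That median was 0.55 for the fibrillar collagens and 0.39 for the small proteoglycans.

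The mean of the small proteoglycans spanned 1.28 between strains, against 0.97 for the fibrillar collagens. This span leans on Fmod, whose range of 3.78 was wider than those of the rest of the class, from 0.84 in Dcn to 1.78 in Aspn. Fmod, which encodes fibromodulin, a proteoglycan of dense connective tissue, ranged by 3.78, a 13.8-fold span and the widest of all members (adjusted p = 0.00793, and 0.0601 without NOD/LtJ and NON/LtJ). Its male arrays ran from 3.87 through 5.94 to 7.46 and its female arrays from 4.56 through 6.55 to 9.12. NOD/LtJ held the highest array of each sex, at 7.46 and 9.12, and departed by 2.28 (SE 0.43, adjusted p = 0.00145). Without its female array the difference was 1.70 and the call was lost (adjusted p = 0.149). Both further Fmod probe sets were also higher in NOD/LtJ, by 1.83 (SE 0.25, adjusted p = 1.88e-05) and by 1.15 (SE 0.24, adjusted p = 0.00324). In the other direction KK/HIJ departed by -1.66 (SE 0.43, adjusted p = 0.0273) with 4.26 and 4.75, and BUB/BnJ by -1.63 (SE 0.43, adjusted p = 0.0306) with 4.42 and 4.65. Neither further probe set showed these falls as a call, with differences from -0.28 to -0.05.

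Lum, which encodes lumican, ran from 7.60 through 9.02 to 9.78 in males and from 8.18 through 9.35 to 10.54 in females. PL/J at 10.07 and AKR/J at 10.01 were highest and BTBT T+tf/J at 8.42 lowest, with 7.60 in its male and 9.25 in its female array (adjusted p = 0.0243); without SM/J and PL/J the adjusted p was 0.0667. Dcn, which encodes decorin, spanned 0.84 between NOD/LtJ at 12.95 and BTBT T+tf/J at 12.11 (male 11.73, female 12.48) and was not called (adjusted p = 0.064). Bgn, the biglycan gene, reached 8.88 in NOD/LtJ and 8.79 in MRL/MpJ (adjusted p = 0.0595, and 0.0356 without SM/J and PL/J). Ogn, which encodes osteoglycin, spanned 1.12 from SWR/J to SJL/J (adjusted p = 0.134). Aspn, the asporin gene, was not called by the F test (range 1.78, adjusted p = 0.0997) but departed in C58/J, with 7.12 and 7.46 (difference 1.05, SE 0.30, adjusted p = 0.0434). That departure was lost in 22 of the 50 fits that left out 1 array.

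As a class, they were highest in NOD/LtJ at 0.77 ± 0.48 (SD, n = 2), then C57BR/cdJ at 0.42 ± 0.21 and AKR/J at 0.37 ± 0.02, and all 6 genes lay above their mean in each of these strains. They were lowest in SJL/J at -0.51 ± 0.01, BUB/BnJ at -0.46 ± 0.10 and KK/HIJ at -0.45 ± 0.48. Fmod weighed on these ranks, with its lowest strain means in KK/HIJ at 4.505 and BUB/BnJ at 4.53. In KK/HIJ 2 of 6 genes lay above their mean. The SJL/J arrays lay at -0.52 and -0.50 with 0 of 6 genes above their mean, while its fibrillar collagen mean was -0.01 ± 0.02. That mean combines Col5a3, highest in SJL/J at 7.67, with Col1a1, second lowest there at 7.24. Dcn and Lum, genome neighbours with 0 coding genes between them, had an r of 0.51 (permutation p = 0.0101, adjusted p = 0.0183; rho = 0.50, p = 0.0119), and 0.35 without BTBT T+tf/J and NOD/LtJ (permutation p = 0.0989), where it no longer passed. Ogn and Aspn, which have 1 coding gene between them, had an r of 0.50 (permutation p = 0.0121, adjusted p = 0.0198, rho = 0.55 with permutation p = 0.00522). Without SJL/J and c57BL/6J their r was 0.49. Between arrays of different animals Dcn with Lum gave 0.04 and 0.31, and Ogn with Aspn 0.07 and 0.26.

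Of the matrix glycoproteins, Postn had the widest range, at 2.65 between NOD/LtJ and SWR/J (adjusted p = 4.21e-05). It encodes periostin, a matricellular protein that promotes collagen cross-linking. Male arrays ran from 6.80 through 8.61 to 9.70 and female arrays from 7.30 through 8.73 to 10.06, and the sexes shared the strain order (r = 0.72). NOD/LtJ held the highest array of each sex and departed by 1.26 (SE 0.29, adjusted p = 0.00917). SWR/J, with 7.16 and 7.30, departed by -1.503 (SE 0.29, adjusted p = 0.00152), and FVB/NJ, with 7.15 and 7.52, by -1.40 (SE 0.29, adjusted p = 0.00334). The male SM/J array was lower still at 6.80, whereas the female SM/J array, which has transcripts of both sexes, lay at 9.43.

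Comp, which encodes a cartilage and tendon matrix protein that binds collagen, differed in another order (adjusted p = 2.26e-05, range 2.12, male to female r = 0.76). Male arrays ran from 4.24 through 5.64 to 6.95 and female arrays from 5.11 through 6.48 to 7.27. BUB/BnJ was highest, with 6.95 and 7.02 (difference 1.01, SE 0.24, adjusted p = 0.0131). The departing low strains were c57BL/6J with 4.24 and 5.48 (difference -1.20, SE 0.24, adjusted p = 0.00262; 0.175 without the 8 arrays with transcripts of both sexes), A/J with 4.61 and 5.11 (-1.20, SE 0.24, adjusted p = 0.00264) and C57BR/cdJ with 4.83 and 5.26 (-1.01, SE 0.24, adjusted p = 0.0136). Those of C57BR/cdJ and BUB/BnJ were close to the required size, and were lost in 16 and 7 of the 50 fits that left out 1 array.

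Mgp, an inhibitor of matrix calcification, ranged from 9.68 in C57BR/cdJ and 9.63 in NOD/LtJ to 7.71 in KK/HIJ (adjusted p = 0.00725). Fbln2, which encodes fibulin 2, ran from 8.90 in SWR/J and 8.80 in 129S1/Sv1mJ to 7.40 in NZW/LacJ (adjusted p = 0.00043). SWR/J, its highest strain, was the lowest for Postn, and the genes had an r of -0.38. Sparc, a collagen-binding protein, ran from 12.42 in MRL/MpJ to 11.42 in BALB/CByJ (adjusted p = 0.00161), and Fbln5, which takes part in elastic fibre assembly, from 9.39 in NON/LtJ to 8.61 in C57BR/cdJ (adjusted p = 0.0102). Col1a1 and Sparc had an r of 0.53 (permutation p = 0.00629, adjusted p = 0.0126; rho = 0.50, p = 0.0123; r = 0.41 without MRL/MpJ and SM/J, permutation p = 0.0518). Between arrays of different animals this pair gave 0.06 for male Col1a1 with female Sparc and 0.52 the other way round. Fn1, the fibronectin gene, had a range of 1.96 and was not called (adjusted p = 0.0849), nor were Fbln1, Thbs2 and Vcan.

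Timp3, a metalloproteinase inhibitor held in the matrix, had the smallest adjusted p of all members (3.32e-07). Male arrays ran from 8.47 through 9.15 to 9.95 and female arrays from 8.94 through 9.81 to 10.49, with a male to female r of 0.84. CBA/J at 10.17 and A/J at 10.15 were highest, and c57BL/6J at 8.98 and BUB/BnJ at 8.70 lowest. No strain departed by 1 log2 unit at an adjusted p under 0.05. Of 3 further Timp3 probe sets, 2 were called (adjusted p = 0.000373 and 0.0126), with r of 0.62 and 0.52 to the first, and the other was not (adjusted p = 0.0719, r = 0.36).

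Timp2, a related inhibitor, was called with a range of 0.83 (PL/J 12.67, C57BR/cdJ 11.84; adjusted p = 0.00694). Its 4 further probe sets were not called and followed it with r from -0.32 to 0.42, so the strain order holds for 1 probe set. With the mean of its probe sets the adjusted p was 0.224. Mmp2, the gelatinase that cleaves collagen IV, ranged from 7.85 in NOD/LtJ to 6.42 in c57BL/6J (adjusted p = 0.0162). Lox, which cross-links collagen and elastin, was highest in SWR/J at 7.44 and FVB/NJ at 7.36 and lowest in BALB/CByJ at 5.61 (adjusted p = 0.0337), a call lost in 11 of the 50 fits that left out 1 array and without the 8 arrays with transcripts of both sexes (adjusted p = 0.11). Its relative Loxl1 did not follow it (r = 0.10, permutation p = 0.648).

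Serpinh1, the collagen chaperone, and Pcolce, which enhances cleavage of the collagen propeptide, were not called for strain (adjusted p = 0.124 and 0.0788) but followed Col1a1. Their r was 0.57 (permutation p = 0.00311, adjusted p = 0.007; rho = 0.59, p = 0.00234; r = 0.66 without MRL/MpJ and SM/J) and 0.65 (permutation p = 0.00039, adjusted p = 0.001; rho = 0.68, p = 0.00024; r = 0.63 without the same strains). Those r values come from genes read on the same arrays. Between arrays of different animals, male Col1a1 gave 0.36 with female Serpinh1 and 0.09 with female Pcolce. Female Col1a1 gave 0.16 with male Serpinh1 and 0.27 with male Pcolce. Mmp2 did not follow Timp2 (r = 0.04, permutation p = 0.845). Pdgfra, the receptor that marks many fibroblasts, ran from 7.56 in NOD/LtJ to 6.15 in DBA/2J (adjusted p = 0.048, lost in 36 of the 50 fits that left out 1 array) and did not follow Col1a1 (r = 0.19, permutation p = 0.373).

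**Figure D3:**
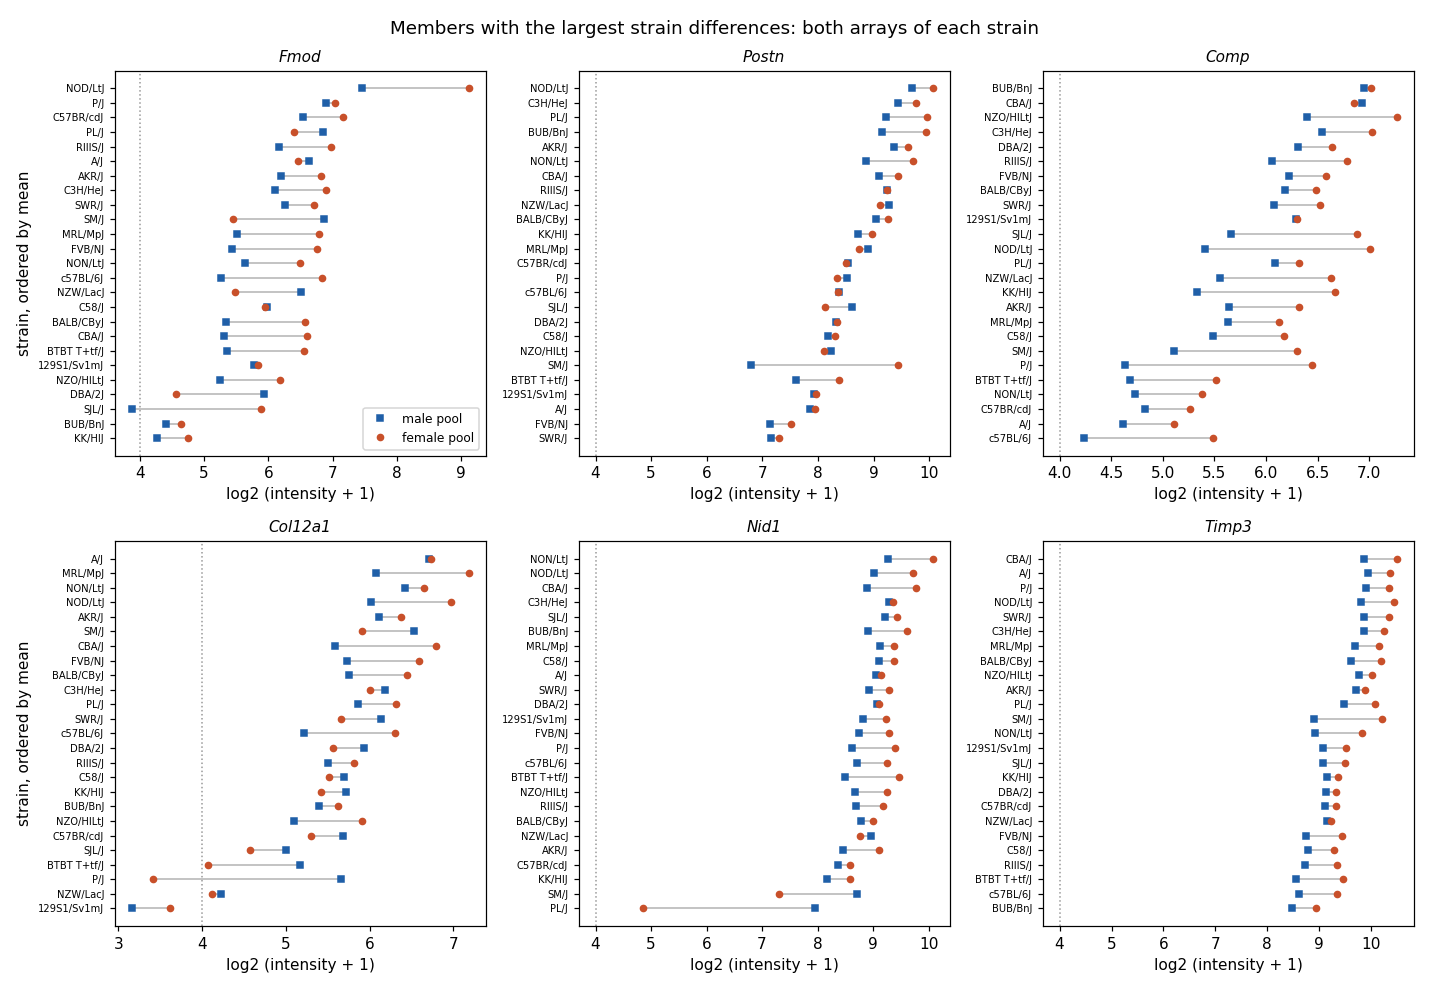
Log2 (intensity + 1) of 6 members with large strain differences, with strains ordered by their mean in each panel; squares are male pools, circles female pools and the dotted line is the floor of 4. NOD/LtJ tops Fmod and Postn in both sexes, 129S1/Sv1mJ lies lowest for Col12a1 at 3.16 and 3.62, and the female PL/J array stands alone for Nid1 at 4.85.

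Strain departures thus numbered 16 in 8 of 47 members, 5 higher and 11 lower. Over all genes, 9.93% had at least 1 departure and 0.854% of gene and strain pairs were departures, 0.386% higher and 0.468% lower. The eighth member was Col1a2, whose P/J arrays at 10.63 and 10.27 lay below every other array of their sex (difference -1.12, SE 0.20, adjusted p = 0.000672). Its further probe set did not depart in P/J (-0.28, SE 0.24, adjusted p = 0.735), and without the female P/J array, which has a high Gapdh signal ratio, the difference was -0.80 (adjusted p = 0.109). Of the 16 departures, 15 were lost in at least 1 fit without a single array, and Col12a1 in 129S1/Sv1mJ was kept in all 50. Without the 8 arrays with transcripts of both sexes the departures numbered 22, and those of Col6a3 in C3H/HeJ, Col12a1 in NZW/LacJ, Aspn in C58/J and Comp in BUB/BnJ and c57BL/6J were lost.

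Co-variation was read as the Pearson r between the strain means of 2 genes, over 25 strains and with no test. Its median over all pairs was 0.28 for the 47 members and 0.02 for all genes, and 20.4% of member pairs against 2.88% of all pairs had an r above 0.5. Fibrillar collagens had a median of 0.59, small proteoglycans 0.51, other collagens 0.38, basement membrane genes 0.33, the enzymes, chaperones and inhibitors 0.25, and glycoproteins 0.19. In the small proteoglycans 15 of 15 pairs had an r above 0, from 0.37 to 0.72. Classes also followed each other: the r between class means was 0.78 for fibrillar with other collagens and 0.66 for fibrillar collagens with small proteoglycans. The basement membrane mean had an r of 0.67 with fibrillar collagens, 0.76 with glycoproteins, 0.52 with other collagens and 0.36 with small proteoglycans.

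Both genes of a pair are read on the same RNA, and these r values were lower when the genes came from different arrays of a strain. With one gene from the male and the other from the female arrays the median r was 0.22 for fibrillar collagens, 0.23 for small proteoglycans, 0.05 for basement membrane genes and 0.09 for all members, against 0.00 for all genes. Within male arrays alone the same medians were 0.53, 0.50, 0.39 and 0.25, and within female arrays 0.65, 0.57, 0.42 and 0.35. Between classes, with genes from different arrays, the median r was 0.18 for fibrillar with other collagens and 0.13 for fibrillar with basement membrane genes. It was 0.145 for fibrillar collagens with small proteoglycans and 0.02 for basement membrane genes with small proteoglycans. Over strain means these medians were 0.45, 0.36, 0.46 and 0.19.

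**Figure D4:**
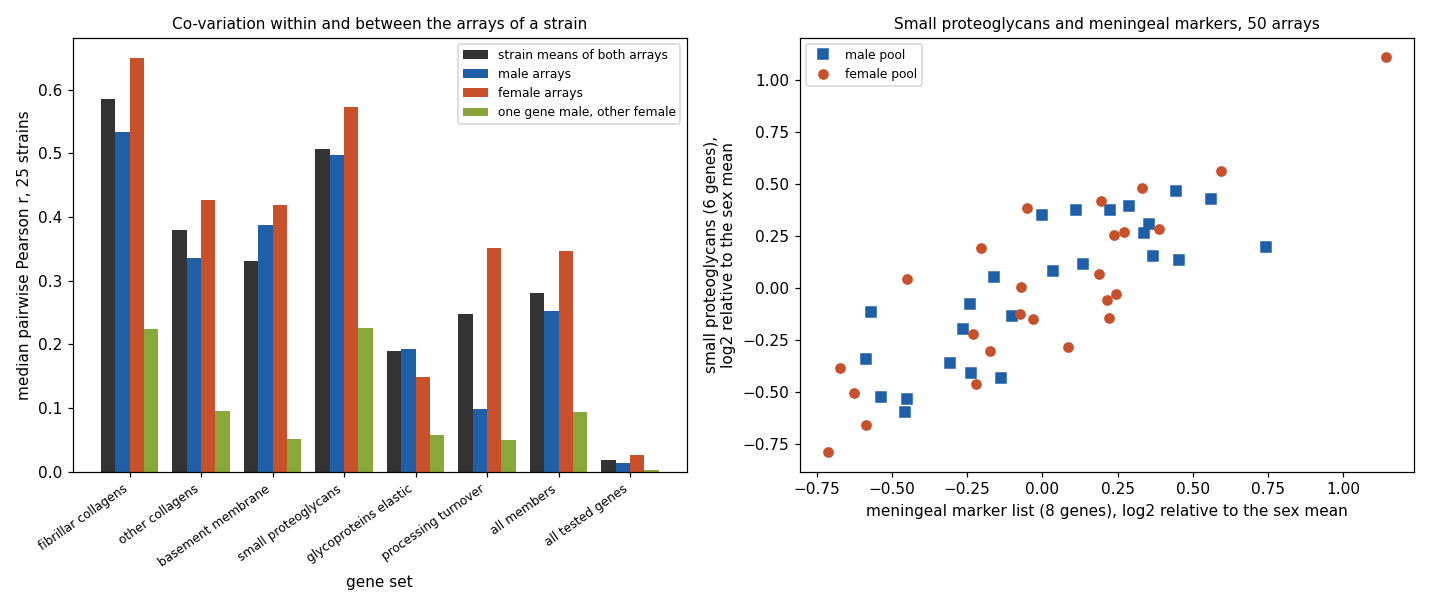
Left, median pairwise r of each gene class over 25 strains from strain means, from male arrays, from female arrays and with one gene from male and the other from female arrays; the last bars are the lowest in each class. Right, mean of the 6 small proteoglycans against mean of 8 meningeal markers in each of 50 arrays, both in log2 relative to the mean of the sex, with the female NOD/LtJ array at the upper right (1.11 and 1.14).

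The closest pairs joined classes. Dcn and Pcolce had an r of 0.85, Col6a2 and Pcolce 0.84, Mgp and Pcolce 0.84, Col6a2 and Bgn 0.83 and Col6a1 and Mgp 0.83. Within the basement membrane Col15a1 and Col18a1 had an r of 0.78, and Mmp2 ran with Col5a2 (0.77), Col18a1 (0.69) and Col4a1 (0.68). The member closest to the mean of all others was Col3a1, at 0.88, then Fn1 at 0.78 and Col6a1 at 0.78.

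Several members stood outside. Timp2 had an r of -0.20 with the mean of the others, Comp -0.05, Nid1 -0.03, Col16a1 0.06, Col5a3 0.08, Fbln2 0.14, Lamb1 0.17 and Fbln5 0.17. The lowest pair values were those of Comp with Pcolce (-0.49), Nid1 with Timp2 (-0.46) and Comp with Mgp (-0.46). Of these 8 members, all but Lamb1 were called for strain, and Comp, Col16a1, Fbln2 and Timp2 had male to female r of 0.76, 0.75, 0.71 and 0.70. For these 4 the strain order was thus shared by both pools, but it was another one than that of the class means. That of Timp2 held for 1 probe set only, since its further probe sets had r from -0.32 to 0.42 with it. Lamb1 had a male to female r of 0.02, and the Nid1 call was lost in 27 of the 50 fits that left out 1 array. The strain means of Nid1 include the outlying PL/J at 6.40, from 7.95 in its male and 4.85 in its female array.

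**Figure D5:**
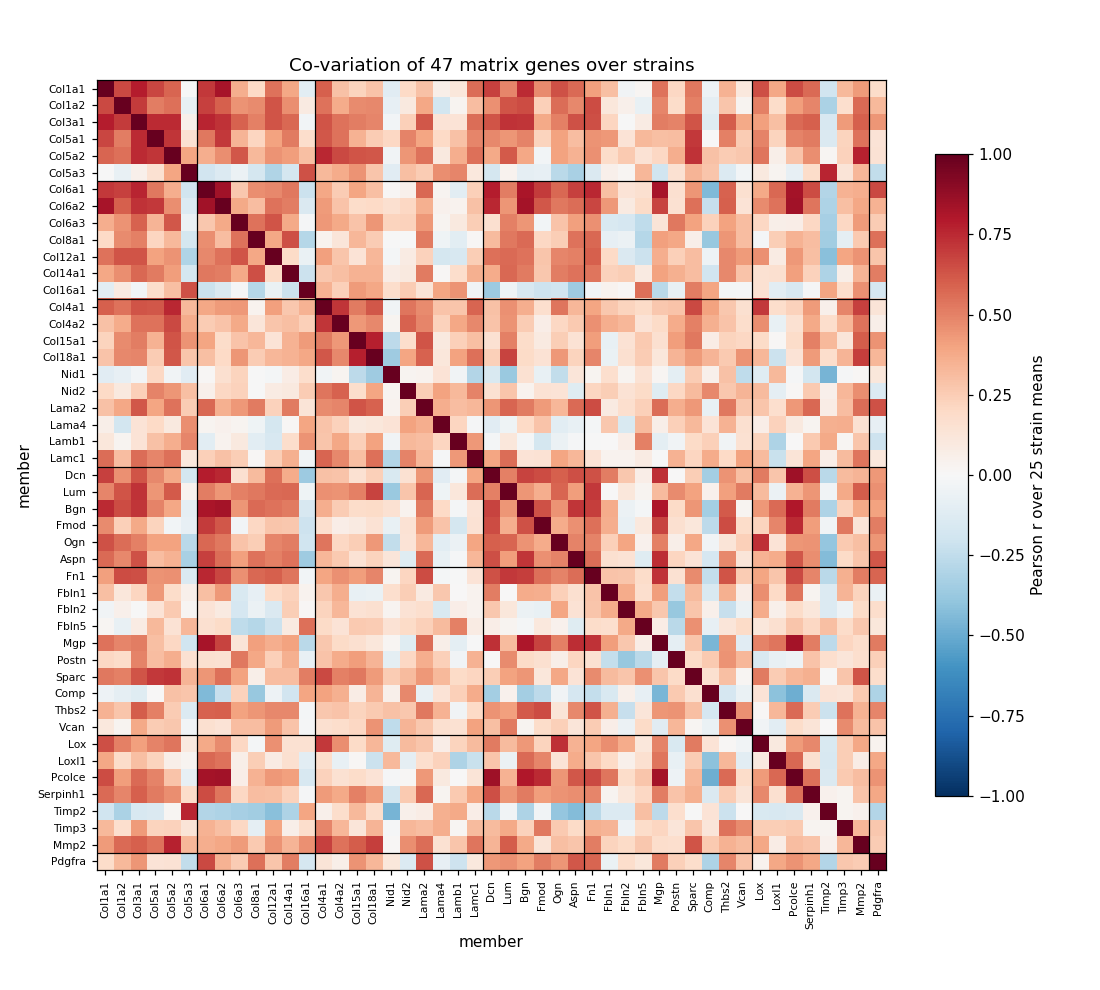
Pearson r between the strain means of each pair of the 47 members over 25 strains, with black lines between classes; red is positive and blue negative. Comp and Timp2 appear as pale or blue stripes, with Comp and Pcolce at -0.49 the lowest pair, while fibrillar collagens, collagen VI chains, small proteoglycans, Mgp and Pcolce form the red blocks.

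Markers of other cells moved with the small proteoglycans. The mean of a meningeal list (8 of 8 tested, 6 called for strain) had an r of 0.87 with the small proteoglycan mean over 25 strains, and ran from 0.85 in NOD/LtJ to -0.64 in KK/HIJ, with a summed linear intensity of 2473 to 7356 in male and 2693 to 13025 in female arrays. A fibroblast and perineurial list (12 of 14 tested, 5 called) had an r of 0.86, with summed intensities of 8709 to 16772 and 10623 to 21542. In these lists Tcf21 and Clec3b were not tested, the first above the floor in 0 arrays and the second in 1. For macrophage (6 of 8 tested), vessel (9 of 10) and blood and marrow lists (5 of 8) the r was 0.74, 0.60 and 0.58. Satellite glia markers (6 of 6) had an r of 0.45, Schwann cell markers (6 of 9) one of 0.05, sensory neuron markers one of -0.51 and skeletal muscle markers one of 0.06.

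With the fibrillar collagens the same meningeal, fibroblast, macrophage, vessel and blood lists had an r of 0.46, 0.61, 0.48, 0.37 and 0.43, satellite glia markers one of 0.53, Schwann cell markers one of 0.22, sensory neuron markers one of -0.13 and muscle markers one of 0.11. With the basement membrane mean the r was 0.55 for satellite glia, 0.35 for Schwann cell, 0.35 for blood and marrow, 0.32 for fibroblast, 0.28 for vessel, 0.25 for meningeal and 0.15 for macrophage markers. It was -0.16 for sensory neuron and -0.20 for muscle markers. The Gapdh 3' minus 5' signal had an r of -0.41 with the fibrillar mean, -0.49 with the other collagens, -0.32 with the small proteoglycans and -0.38 with all members. The part of tissue makeup or RNA integrity in the strain differences was not tested.

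Outside the member list, the 10 genes whose strain means had the highest r with the fibrillar collagen mean were Rftn2 (0.73), Igfbp5 (0.72), Mfap5 (0.72), Htra3 (0.72), Ntn1 (0.71), Ltbp4 (0.71), Lrp1 (0.70), Clic4 (0.69), Igfbp7 (0.69) and P2ry1 (0.68). Several are themselves secreted: Mfap5 is a protein of microfibrils, Ltbp4 binds latent TGF-beta, and Igfbp5 and Igfbp7 bind growth factors. Mfap5 is also in the fibroblast marker list. Rftn2, Mfap5, Ltbp4, Lrp1 and Clic4 were not called for strain (F test, adjusted p from 0.0824 to 0.538). The genes were picked by their r in these same data, so the r values are descriptions.

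Genes of the wider matrix pathway were read from 4 lists, beside the 26.1% of all genes called for strain. Of collagen-modifying enzymes 2 of 15 tested (13.3%) were called: P4ha3, a prolyl hydroxylase subunit, from 6.73 in P/J to 4.09 in RIIIS/J (adjusted p = 1.35e-09), and Colgalt1, a collagen galactosyltransferase, with a range of 1.01 (adjusted p = 0.000137). Of TGF-beta and growth factor genes 2 of 19 (10.5%) were called, Tgfbi with a range of 1.30 and Pdgfrb with 1.27 (adjusted p = 0.00676 and 0.00103). Among matrix proteases 2 of 12 (16.7%) were called, Plau with 1.42 and Ctsk, cathepsin K, with 1.39 (adjusted p = 2.87e-07 and 0.0332). Plau means ran from 2.90 in PL/J to 4.33 in NON/LtJ, so most of that range lay below the floor of 4. Matrix receptors gave 8 of 16 (50%), and the widest were the syndecans Sdc4 with a range of 4.49 and Sdc2 with 1.95 and the hyaluronan receptor Cd44 with 1.55 (adjusted p = 0.011, 1.63e-05 and 5.13e-06). The lowest Sdc4 mean, 3.27 in 129S1/Sv1mJ, also lay below the floor. Over the strains Ctsk had an r of 0.82 with the member mean, and Sdc4 one of -0.04.

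Sex was compared within strains. Of 47 members 30 differed between male and female arrays (limma, strain as block, adjusted p under 0.05), 25 higher in females and 5 in males, where 59% of all genes were called, 34.3% higher in females and 24.7% in males. The lowest intensities of male and female arrays do not overlap, so the sexes may have been normalized apart, and such a step and sex cannot be told apart here. After quantile normalization over all arrays 28 members were called, 21 higher in females and 7 in males, while of all probe sets 28.7% were then higher in females and 28.4% in males. Without the 8 arrays with transcripts of both sexes 22 members were called, 17 higher in females and 5 in males, and the calls of Col1a2, Col5a2, Col6a1, Col6a2, Nid2, Lama2, Bgn, Postn and Vcan were lost. Of the 40 members above the floor in every array, 25 were called, 21 higher in females and 4 in males. By class, higher values in females were called for 6 of 6 small proteoglycans, 6 of 10 glycoproteins, 4 of 7 other collagens, 3 of 6 fibrillar collagens, 3 of 10 basement membrane genes, 2 of 7 enzymes, chaperones and inhibitors, and Pdgfra.

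Pdgfra had the largest difference, -0.92 (male minus female, SE 0.10, adjusted p = 4.56e-09), with medians of 6.38 in males and 7.34 in females and a higher female array in 23 of 25 strains. Aspn followed at -0.89 (SE 0.12, adjusted p = 1.94e-07), higher in females in 24 of 25 strains, with medians of 5.80 and 6.78. Col8a1 was at -0.73, Comp at -0.70, Col6a3 at -0.69 and Fn1 at -0.66. Timp3, at -0.51, was higher in the female array of all 25 strains. Thbs2 had a difference of -0.52, but it lay above the floor in all 25 female arrays and in 1 male array, so that it was tested only because its female values were high. Values between -0.54 and -0.20 were called for Mgp, Fmod, Lum, Col3a1, Col6a2, Vcan, Ogn, Lama2, Loxl1, Col6a1, Dcn, Postn, Col1a2, Bgn, Col5a2, Lamb1 and Nid2. The 5 members higher in males were Col18a1 at 0.37, Col15a1 at 0.36, Fbln2 at 0.24, Lamc1 at 0.23 and Col16a1 at 0.21, and of these Lamc1 was not called without SM/J and PL/J (adjusted p = 0.0935).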

How the data were processed

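Per the labels, biotin-labelled target from pooled total RNA was hybridised to Affymetrix arrays. The authors deposited a linear intensity for every probe set of each array. Per the submitters' processing notes it was computed by GCRMA, with R 2.6.2. Values were taken as log2(intensity + 1). Of 45101 probe sets, 64 controls were left out and 22205 passed the filter (log2 above 4 in at least 2 arrays). The male and female pools were the 2 replicates of a strain, and the number of arrays limits the precision.

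limma 3.58.1 in R 4.3.3 was fitted on all 22205 probe sets with strain and sex as terms, with Benjamini-Hochberg adjustment over all of them, and over all probe sets and strains for single strains. It was tested on simulated data. Pairs were tested over strain means of sex-centred values by two-sided permutation of 100000 resamples, adjusted over 18 pairs. Named genes were the members, the widest called genes of each pathway list, and the 10 genes most like the fibrillar mean. Probe sets were named from the platform annotation. Members and lists were chosen with earlier results of these data known. Alternatives were another pseudocount, floor, normalization or probe set rule, strains or arrays left out, and sexes alone.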

Additional observations from a re-analysis of the deposited data

How the results depend on the processing

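No called strain departure or sex difference changed direction in any alternative fit. Some pair correlations did change sign: Lamb1 and Lamc1, at 0.43 over strain means, gave -0.12 for male Lamb1 against female Lamc1. A further Nid1 probe set gave 0.09 in PL/J, against -2.62 on the leading one. The 23 strain calls became 12 without the sex term. Members higher in males fell from 5 to 3 with a floor of 6, and to 3 with no replicate block, where 22 members were called for sex, 19 of them higher in females. The median range was 1.90 in female arrays alone. The median r of basement membrane genes (0.33) was 0.367 after quantile normalization, 0.391 with the mean of probe sets, 0.397 without SM/J and PL/J, 0.275 without the 2 arrays of highest Gapdh ratio, 0.387 in males, 0.419 in females and 0.052 across sexes. That of small proteoglycans (0.51) was 0.572 in females, 0.226 across sexes, 0.589 without the 8 arrays with transcripts of both sexes and 0.439 without NOD/LtJ and NON/LtJ, the strains farthest from the median, the last 2 chosen after seeing the data. That of all members was 0.202 without those strains and 0.094 across sexes, and that of fibrillar collagens 0.224 across sexes. The cause was not tested. Leaving out 1 array gave 18 to 30 strain calls, 12 to 25 departures (25 without the male P/J array), 28 to 30 sex calls, 23 to 25 higher in females and 4 to 6 in males. It gave a median range of 1.285 to 1.448, a median r of 0.55 to 0.622 in fibrillar collagens, 0.289 to 0.454 in basement membrane genes, 0.445 to 0.589 in small proteoglycans and 0.239 to 0.346 in all members, a male to female r of 0.373 to 0.463 and 11 to 13 called pairs. The sex test uses strain as its pairing. With 2 pools a strain, differences of under 1 log2 unit in 1 strain are poorly resolved.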

Other observations

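Of 39 further probe sets tested for 28 members, 27 followed the strain means of the leading probe set with an r above 0.5 and 4 had an r below 0.2. A further probe set of Lox with a mean of 2.68, below the floor, had an r of -0.17 with the leading one, while another Lox probe set had an r of 0.94. A further probe set of Col5a2 had a range of 2.14 (limma F test, adjusted p = 6.36e-10), an r of 0.85 with the leading probe set and its highest mean in KK/HIJ. These probe sets were chosen after their values were seen.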
